A study of Mus musculus with 4 samples.

Results

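Oxidative phosphorylation is carried out by 5 protein complexes of the inner mitochondrial membrane, and most of their subunits are encoded in the nucleus. The genes described here are the nuclear-encoded subunit and assembly factor genes, chosen by symbol: Nduf for complex I, Sdh for complex II, Uqcr for complex III, Cox4 to Cox8 for complex IV, and Atp5 for ATP synthase. The rule found 90 genes among 15654 nuclear genes counted in the data. Of these, 35 encode subunits of complex I, 4 of complex II, 8 of complex III, 17 of complex IV (with Ndufa4, now assigned there) and 15 of ATP synthase, while 9 are named as assembly factors. The rows Atp5s and Atp5sl carry an Atp5 symbol but encode no subunit of the enzyme, and they were kept apart.

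Complexes I and II pass electrons from NADH and succinate to ubiquinone, complex III hands them to cytochrome c, and complex IV transfers them to oxygen. Complexes I, III and IV pump protons, and ATP synthase uses the returning protons to make ATP. Complexes I, III and IV and ATP synthase each combine nuclear-encoded subunits with subunits encoded on the mitochondrial chromosome (chrM), whereas complex II is encoded entirely in the nucleus. In macrophages and microglia, the balance between this pathway and glycolysis is known to differ between activation states.

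The cells were myeloid cells sorted into 384-well plates for single-cell sequencing from brains of Balb/C athymic nude mice (CAnN.Cg-Foxn1nu/Crl) bearing lung cancer brain metastases. Animals of this strain lack a normal thymus and the T cells made there. The 4 samples are BMDM (the labels' abbreviation, not spelled out there) and microglia, the resident macrophages of the brain, each without whole brain radiation therapy (WBRT) and with WBRT of 5 fractions of 2 Gy (the label also reads d3, with no start day given). Plates without WBRT are labelled with the tumor stage small and plates with WBRT as not stratified, so that stage, treatment and plate cannot be told apart. Each group is 1 plate and names no animals. No test across samples was possible, and every difference below is one between 2 libraries.

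Kept wells numbered 234 and 262 in the BMDM plates without and with WBRT, and 157 and 151 in the microglia plates without and with WBRT. These plates held 1265842, 2513025, 874710 and 649107 endogenous transcript counts, with medians per well of 4388, 8894, 4789 and 2546. The ERCC spike-in share had a median of 6.92% to 7.86% in 3 plates and of 30.6% in microglia with WBRT. The 10 microglia markers summed to 9604 and 10499 CPM (endogenous counts scaled to the same total in every plate) in the microglia plates and to 3467 and 2883 CPM in the BMDM plates, so microglia marker transcripts were also counted in the BMDM plates. Ccr2, the chemokine receptor of recruited monocytes, stood at 389 and 969 CPM in the BMDM plates and at 0 and 6.16 CPM in the microglia plates. The 9 monocyte markers, Ccr2 included, summed to 1751 and 2662 CPM in the BMDM plates and to 186 and 363 CPM in the microglia plates. The 10 dendritic cell markers summed to 1796 and 197 CPM in the BMDM plates and to 287 and 325 CPM in the microglia plates. In each microglia plate 5 of the 10 had no count. The median marker stood at 1.71 and 0.770 CPM there, against 74.7 and 14.1 CPM in the BMDM plates. With WBRT, 4 of these markers reached 20 CPM in either plate, of which 3 were higher and 1 lower in BMDM. In microglia with WBRT, all 7 astrocyte markers were counted and summed to 983 CPM, against 33.2 to 101 CPM in the other plates. A single well held 562 of the 638 counts behind that sum, and without it the sum was 120 CPM. All 384 well names occur on every plate, as plate positions and not as shared cells.

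Many nuclear oxidative phosphorylation genes are known targets of nuclear respiratory factor 1 (NRF1) and of ETS family factors such as the GA-binding protein. RefSeq start-site windows (250 bases before to 50 after the start, GRCm38.p6) were found for 69 of the 81 genes that reached 20 CPM in at least 1 plate. They were searched on both strands for CCGGAAG (the ETS core), an NRF1 core (the capitals in the Ndufaf4 stretch below), a YY1 core (not spelled out here), CCAAT and TATAAA, none of which contains another. The stretches below end just before the start that RefSeq gives and are shown because they carry an ETS core ahead of that start in subunit genes, or, for Ndufaf4, the NRF1 core. The motif is in capitals (CTTCCGG is the ETS core read on the other strand), and each stretch is written 5′ to 3′ along the gene.
Uqcrh (chr4:116075071-116075190, minus strand): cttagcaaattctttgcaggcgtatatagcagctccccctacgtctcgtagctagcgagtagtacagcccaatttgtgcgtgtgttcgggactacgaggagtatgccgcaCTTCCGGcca
Uqcr11 (chr10:80406822-80406941, minus strand): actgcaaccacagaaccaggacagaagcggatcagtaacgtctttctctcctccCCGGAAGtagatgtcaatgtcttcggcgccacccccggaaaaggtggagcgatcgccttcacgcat
Atp5e (chr2:174464102-174464221, minus strand): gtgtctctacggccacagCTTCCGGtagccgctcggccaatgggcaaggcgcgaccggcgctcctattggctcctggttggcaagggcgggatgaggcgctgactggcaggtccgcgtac
Ndufaf4 (chr4:24897963-24898082, plus strand): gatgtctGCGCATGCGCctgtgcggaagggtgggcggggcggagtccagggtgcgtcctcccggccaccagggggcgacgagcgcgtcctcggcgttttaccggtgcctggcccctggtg

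The ETS core lay in a window of 18 of the 69 genes (26.1%), against 22.4% of 5612 genes that reached 20 CPM and 9.93% of all 27025 genes with a window. The NRF1 core was found for 6 of the 69 (8.70%), against 2.53% of the genes at that level and 1.07% of all. The YY1 core was also found for 6 (8.70%), against 2.89% and 0.995%. The CCAAT box was about as frequent in the oxidative phosphorylation genes as elsewhere, at 42.0% against 42.6% and 41.1%. TATAAA was found for 7.25%, against 8.73% of genes at that level and 15.7% of all. These are matches of letters and do not show binding.

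Transcripts of the 90 genes made up about the same small part of the nuclear-encoded counts in all 4 plates. The pooled share was 1.14% (95% Wilson interval 1.12 to 1.16) in BMDM without WBRT and 1.11% (1.10 to 1.12) in BMDM with WBRT. It was 1.01% (0.992 to 1.04) in microglia without WBRT and 0.982% (0.957 to 1.01) in microglia with WBRT. These intervals hold counting error alone. In pooled counts, fewer cells of a type and less RNA per cell cannot be told apart.

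Single wells ranged widely around these values. The share per well ran from 0.228% to 1.99% in BMDM without WBRT, with a median of 1.05%, and from 0.0986% to 3.21% in BMDM with WBRT, with a median of 1.09%. In microglia it ran from 0.204% to 2.80% without WBRT (median 1.02%) and from 0.209% to 2.55% with WBRT (median 1.08%). The 4 well medians therefore lay closer together than the pooled shares, and microglia with WBRT, lowest when pooled, had the second highest median. The standard deviation over wells was 0.315, 0.374, 0.418 and 0.494 percentage points in the order of the plates above. Counting error alone would give 0.188, 0.140, 0.186 and 0.205, so the wells of each plate differed by more than counting error.

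**Figure D1:**
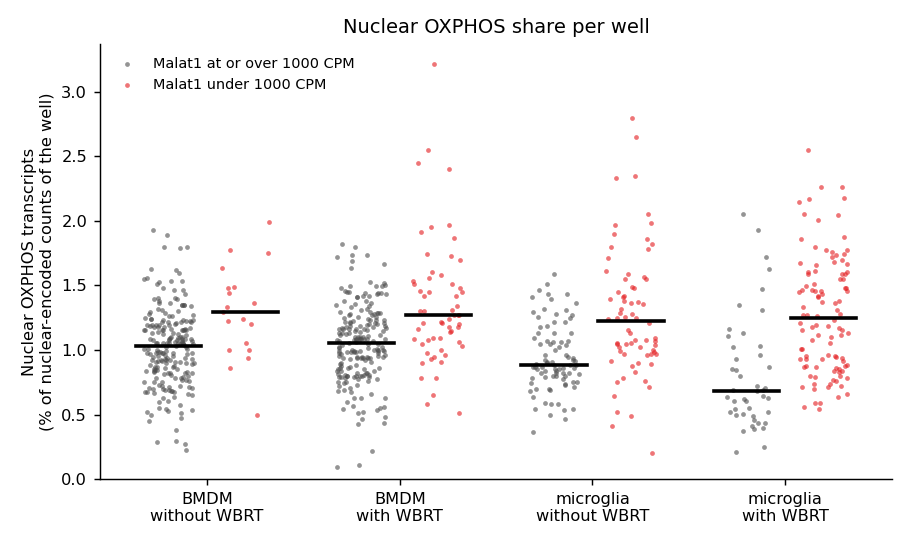
Nuclear oxidative phosphorylation transcripts as a percentage of the nuclear-encoded counts of each kept well (points), by plate and split at 1000 CPM of the nuclear RNA Malat1; black bars are medians over wells. In each plate the wells under the Malat1 limit sit higher as a group, and the split is widest in microglia with WBRT, where 106 of 151 wells are under the limit.

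The complexes kept nearly the same proportions in every plate. Complex I gave 28.5% to 30.8% of the counts of the 90 genes, ATP synthase 29.3% to 31.1%, complex IV 25.3% to 27.3%, complex III 8.22% to 9.11% and complex II 3.56% to 4.15%. The 9 assembly factors together gave 1.29% to 1.45%. All 35 complex I genes, all 4 of complex II, all 8 of complex III and all 15 of ATP synthase were counted in every plate. In the protocol the labels cite, the end of each transcript is counted once through its unique molecular identifier (UMI), so a CPM does not grow with transcript length and levels of different genes are set side by side on the scale of transcripts.

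Complex I is the entry point for NADH, and its most abundant transcript was Ndufa12, an accessory subunit, at 213 and 169 CPM in BMDM without and with WBRT and at 269 and 305 CPM in microglia without and with WBRT. Microglia were thus above BMDM in both treatment groups. Ndufc2, an accessory subunit of the membrane arm, stood at 190 and 150 CPM in BMDM and at 183 and 125 CPM in microglia. Ndufa6, another accessory subunit, stood at 213, 162, 147 and 81.7 CPM in the same order and was lowest in microglia with WBRT. The catalytic core was lower: Ndufv1, which binds NADH and flavin, stood at 40.3, 41.0, 42.3 and 57.0 CPM, and the iron-sulfur subunit Ndufs1 at 33.2, 48.9, 53.7 and 63.2 CPM.

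Complex II oxidizes succinate and also serves the citric acid cycle. Its iron-sulfur subunit Sdhb stood at 149 and 122 CPM in the BMDM plates and at 137 and 103 CPM in the microglia plates, again without then with WBRT. The flavoprotein Sdha stood at 100, 128, 126 and 94.0 CPM in the same order. The membrane anchors went opposite ways in BMDM: Sdhc stood at 49.8 CPM without and 88.3 CPM with WBRT, and Sdhd at 68.7 CPM without and 39.8 CPM with WBRT. In microglia the anchors stood at 67.5 and 92.45 CPM (Sdhc) and at 48.0 and 47.8 CPM (Sdhd).

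In complex III, the small subunit Uqcrq was highest, at 210 and 154 CPM in BMDM and at 154 and 153 CPM in microglia. The hinge protein Uqcrh was nearly level over the plates, at 162, 156, 135 and 143 CPM. The Rieske iron-sulfur protein Uqcrfs1, a catalytic subunit, was not: it stood at 96.4 and 87.5 CPM in BMDM, at 41.2 CPM in microglia without WBRT and at 75.5 CPM in microglia with WBRT. The core protein Uqcrc2 had its lowest level, 48.0 CPM, in the same microglia plate without WBRT and stood at 73.5, 91.5 and 113 CPM in the other plates.

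Complex IV and ATP synthase held the most abundant transcripts of the whole set. Cox8a, a small subunit of complex IV, stood at 426, 454, 445 and 452 CPM and had a UMI in 62.9% to 90.1% of wells. Cox4i1, a subunit that binds regulatory nucleotides, stood at 345, 312, 334 and 319 CPM. The Poisson intervals of all 4 plates overlapped for each of these genes. Cox6a1, the widely expressed form of subunit VIa, stood at 317 and 344 CPM in BMDM and at 237 and 279 CPM in microglia.

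Cox6c and Cox5b varied more among the complex IV genes. Cox6c stood at 309 and 213 CPM in BMDM without and with WBRT and at 265 and 143 CPM in microglia without and with WBRT, so both plates with WBRT were lower. Cox5b, which binds zinc, stood at 250 and 205 CPM in BMDM and at 144 and 117 CPM in microglia, so both BMDM plates were higher. Cox7a2l, a factor that joins complexes III and IV, stood at 267 CPM in BMDM without WBRT and at 165 to 188 CPM in the other plates.

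In ATP synthase, the catalytic subunit Atp5b stood at 362 and 381 CPM in BMDM and at 343 and 300.5 CPM in microglia, and its partner Atp5a1 at 281, 350, 254 and 288 CPM. The c ring, through which protons pass, is made from a protein encoded by several genes with the same mature product. Of these, Atp5g2 stood at 285.3, 292, 290 and 268 CPM, Atp5g3 at 207, 275, 218 and 268 CPM and Atp5g1 at 96.4, 138, 82.3 and 78.6 CPM. Atp5g2 and Atp5g3 therefore made up most of the c-ring transcripts in each plate. Atp5f1, the stator subunit b, was higher in both plates with WBRT, at 117 and 94.0 CPM against 69.5 and 61.7 CPM.

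**Figure D2:**
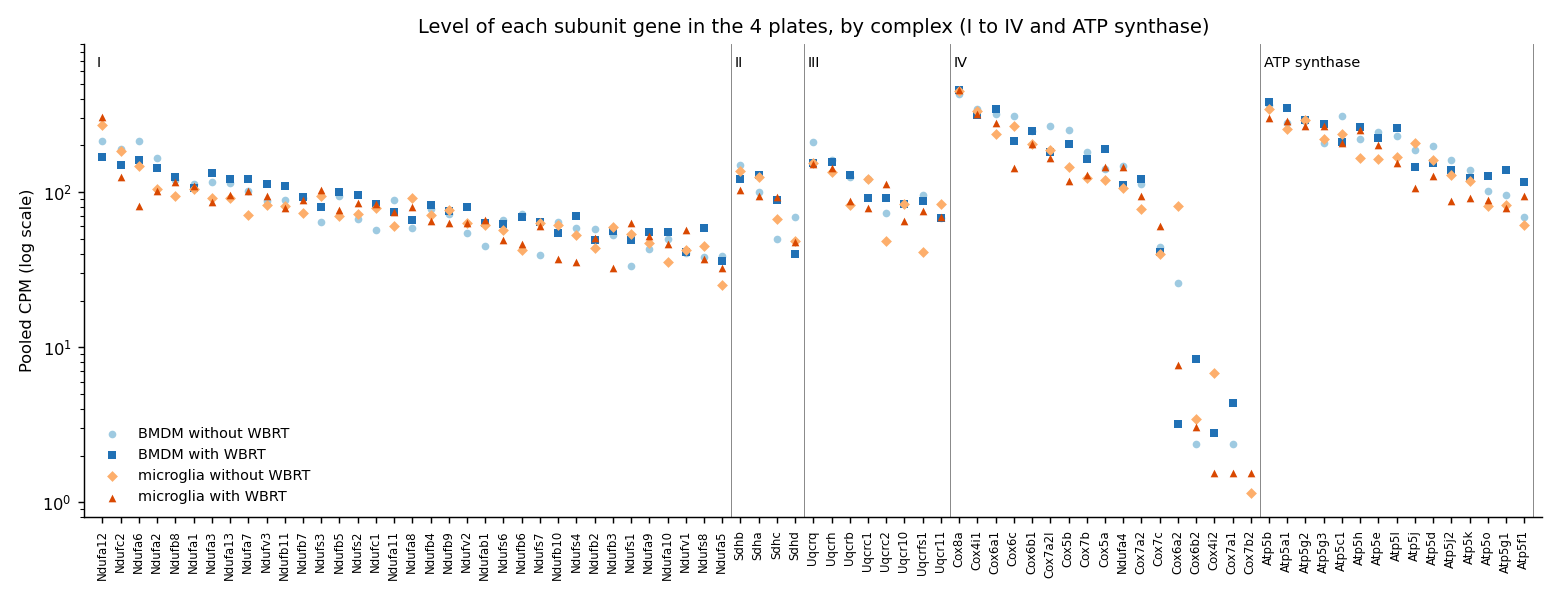
Pooled CPM (log axis) of each of the 79 subunit genes in the 4 plates, grouped by complex and ordered by mean level; a gene with no count in a plate has no symbol there. Most genes lie between 30 and 500 CPM with the 4 symbols close together, and the tissue isoforms Cox4i2, Cox6b2, Cox7a1 and Cox7b2 of complex IV lie far below. Cox6a2 lies that low only in the plates with WBRT.

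Several complex IV subunits exist in a widespread form and in forms known from muscle, lung, testis or other tissues. The tissue forms were near the floor: Cox4i2, known from lung, had 0 to 7 counts per plate, Cox7a1, known from muscle, 0 to 11, Cox7b2 0 or 1, and Cox6b2, known from testis, 2 to 21. A count of 0 allows up to 2.37, 1.19, 3.43 and 4.62 CPM in the 4 plates, taking 3 counts as the floor. The widespread partners Cox6b1, Cox7a2 and Cox7b stood at 203 to 248 CPM, 77.7 to 121 CPM and 122 to 181 CPM.

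Cox6a2, the form of subunit VIa known from heart and skeletal muscle, was the exception. It had 33 counts (26.1 CPM, Poisson interval 17.9 to 36.6) in BMDM without WBRT and 71 counts (81.2 CPM, 63.4 to 102) in microglia without WBRT. With WBRT it had 8 counts (3.18 CPM) in BMDM and 5 counts (7.70 CPM) in microglia. Both plates with WBRT were low, and both plates without WBRT, which share the stage label small, were high. Its counts were spread over 36 of 157 wells of microglia without WBRT, with at most 8.01 in a well, and lay in 2 of 151 wells of microglia with WBRT.

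After thinning each well to 1000 UMIs, Cox6a2 was seen in 2.99% of wells (exact interval 1.21 to 6.07) and 4.46% (1.81 to 8.97) of the BMDM and microglia plates without WBRT. With WBRT it was seen in 0.763% (0.0926 to 2.73) and 0.662% (0.0168 to 3.63). Unthinned, these shares were 8.97%, 22.9%, 2.29% and 1.32%. The thinned shares had the same order as the pooled levels between treatments, but their intervals overlapped. Of the 71 counts in microglia without WBRT, 56 lay in 29 wells of microglia-like cluster 2 (clusters are described further on), at 79.5 CPM. That cluster held 91 wells of this plate and 2 wells of microglia with WBRT. In microglia-like cluster 1, which both plates hold, Cox6a2 had 15 counts (115 CPM) in 7 of 55 wells without WBRT. With WBRT it had 4 counts (22.8 CPM) in 1 of 61 wells of cluster 1. Cluster 2 thus held most of the counts, and its wells were deeper, with a median of 6458 counts, compared with 1916 in cluster 1. The level in cluster 1 rests on 15 counts, so the levels of these clusters are not ranked here.

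Cox6a2 lies on the minus strand at chr7:128205435-128206387 (GRCm38, GENCODE), inside the span of the integrin gene Itgad on the plus strand. Itgad had at most 0.790 CPM in any plate. In the same annotation, 41 of the 90 genes overlap another gene, 12 of them on the same strand and 33 on the opposite strand. Whether reads were counted by strand is not given in the sources used here. Many of these genes also have processed pseudogenes, so values rest on how the authors assigned reads to near-identical copies.

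The assembly factors were scarce. Sdhaf2, which helps insert flavin into Sdha, stood at 41.1 and 34.6 CPM in BMDM and at 26.3 and 18.5 CPM in microglia. Ndufaf7, which methylates a complex I subunit, was level at 26.9, 23.5, 24.0 and 24.7 CPM. Ndufaf4, whose upstream stretch with the NRF1 core is shown above, had 17, 41, 10 and 19 counts (13.4, 16.3, 11.4 and 29.3 CPM), and Ndufaf1 had 11, 23, 2 and 13. At such counts the counting error of a difference between plates is wide. The folds of Ndufaf1 and Ndufaf4 between the microglia plates are given below with their intervals. In all, 9 of the 90 genes stayed under 20 CPM in every plate, and 27 reached 100 CPM in every plate.

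The first comparison set BMDM against microglia without WBRT, over genes that reached 20 CPM in either library, on the log2 ratio of CPM + 5 (the added 5 CPM shrinks ratios of low genes). The oxidative phosphorylation genes were slightly higher in BMDM on pooled counts. Of 78 genes compared, 55 were higher (51.1% of all genes were) and 23 lower. The median log2 ratio was 0.17, and that of all 6574 nuclear genes compared was 0.02. A difference of at least 1.5-fold was found for 9 of the 78 (4 higher and 5 lower in BMDM), or 11.5%, against 38.3% of all genes (20.2% higher and 18.2% lower). Among genes of at least 100 CPM, which carry less counting error, it was found for 2 of 39, against 39.0% of all genes at that level. The quartiles of the members were -0.07 and 0.43, and those of all genes -0.42 and 0.46.

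By complex, the median log2 ratio was 0.34 for complex III (7 of 8 higher), 0.28 for complex IV (11 of 13), 0.22 for ATP synthase (12 of 15), 0.10 for complex I (21 of 35) and -0.10 for complex II (2 of 4). Uqcrfs1, the Rieske protein, was farthest up, 2.34-fold higher in BMDM (1.60 to 3.50), followed by Cox5b at 1.73-fold (1.41 to 2.15) and the complex I accessory subunit genes Ndufb6 and Ndufa2 at log2 ratios of 0.72 and 0.65. Cox6a2 was farthest down, 3.11-fold lower in BMDM (2.03 to 4.86). Atp5sl, a factor for assembly of complex I despite its symbol, was 1.87-fold lower (1.17 to 3.02), at 26.9 against 50.3 CPM. The iron-sulfur subunit genes Ndufs1 and Ndufs7 stood at log2 ratios of -0.62 and -0.61. The small overall difference depended on how wells were pooled: with every well weighted alike the median was -0.025, and with every well thinned to 1000 UMIs -0.022.

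With WBRT, BMDM were again slightly higher on pooled counts. Of 80 genes compared, 61 were higher (54.2% of all genes were) and 19 lower, and the median was 0.24 against 0.07 over all 6757 genes. At least 1.5-fold differences were found for 14 genes (10 higher, 4 lower), or 17.5%, against 35.7% of all genes (19.3% higher and 16.4% lower). All 15 ATP synthase genes stood above microglia in the BMDM plate (median 0.30), as did 27 of 35 complex I genes (0.24), 9 of 12 complex IV genes (0.29), 6 of 8 complex III genes (0.16) and 2 of 4 complex II genes (0.08). With wells weighted alike the median over all members was -0.010 and with thinning -0.032, while with wells under the Malat1 limit left out it was 0.54.

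The 4 genes called lower in BMDM were Atp5s, Ndufa12, Ndufaf1 and Ndufaf4. Atp5s, which encodes no subunit, was farthest down at a log2 ratio of -1.41, with 14 counts in BMDM and 15 in microglia, and the assembly factor genes Ndufaf1 and Ndufaf4 stood at -0.82 and -0.69. Ndufa12, the only one of the 4 above 50 CPM, was 1.80-fold lower (1.52 to 2.14). Among genes above 50 CPM, Ndufa6 was 1.98-fold higher in BMDM (1.49 to 2.69), at 162 against 81.7 CPM, and Ndufs4, an accessory subunit near the NADH-binding end, 1.97-fold (1.27 to 3.18), at 69.6 against 35.4 CPM. Cox5b was 1.75-fold higher (1.37 to 2.26), close to its fold without WBRT, although these are other libraries. Atp5g1 was 1.76-fold higher (1.31 to 2.41). Below the 1.5-fold limit, and next lowest after Ndufa12 among genes above 50 CPM, were Cox7c, Ndufv1 and Ndufa4 (a complex IV subunit despite its symbol), with log2 ratios of -0.49, -0.43 and -0.36.

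The third comparison set BMDM with WBRT against BMDM without, and the genes as a group were level. It shares its plates with the comparisons above, so its values are not independent of them. Of 78 genes, 42 were higher (55.9% of all genes were) and 36 lower with WBRT, with a median of 0.03 against 0.08 over all 6535 genes. At least 1.5-fold differences were found for 5 genes (3 higher, 2 lower), or 6.41%, against 30.2% of all genes (16.4% higher and 13.8% lower), and for 1 of 43 at 100 CPM or more, against 33.1%. Complex medians lay between -0.13 (complex IV, 4 of 13 higher) and 0.08 (complex I, 24 of 35 higher). Complex III, ATP synthase and complex II stood at -0.03, 0.07 and 0.03.

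The 2 genes lower by this measure were Sdhd and Cox6a2. Sdhc was 1.78-fold higher with WBRT (1.34 to 2.39) and Sdhd 1.73-fold lower (1.28 to 2.33), so the anchors of the same complex stood at opposite ends. Atp5f1 was 1.68-fold higher (1.32 to 2.15), and the complex I iron-sulfur subunit genes Ndufs7 and Ndufs8 stood at log2 ratios of 0.63 and 0.57. Cox7a2l was 1.48-fold lower (1.28 to 1.71), Atp5c1, the rotating gamma subunit, 1.47-fold lower (1.29 to 1.68) and Cox6c 1.45-fold lower (1.27 to 1.66). These values were not alike within clusters that both BMDM plates hold. Within cluster 5 (42 and 25 wells) the median over all members was 0.39, against 0.14 over all genes, and within cluster 3 (80 and 18 wells) it was -0.71, against -0.39. Sdhd stood at 0.72 in cluster 5 and 0.020 in cluster 3, and Sdhc and Atp5f1 at -0.37 and -0.21 in cluster 3. With each well thinned to 1000 UMIs, Sdhc stood at -0.24. Cell type markers also differed between these plates. Dendritic cell markers summed to 1796 CPM without and 197 CPM with WBRT. The 9 markers listed for macrophages, border-associated ones included, summed to 545 and 2665 CPM, and F13a1 among them is also listed for monocytes. What part differing cell types have in the gene ratios was not tested.

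In microglia, the genes were level as a group between plates with and without WBRT, with more spread. Of 81 genes, 43 were higher (53.8% of all genes were) and 38 lower with WBRT, with a median of 0.03 against 0.06 over all 6706 genes. At least 1.5-fold differences were found for 13 genes (5 higher, 8 lower), or 16.05%, against 39.2% of all genes (21.4% higher and 17.8% lower). The macrophage markers named above summed to 137 CPM without and 721 CPM with WBRT. The plates also filled different clusters: cluster 2 held 91 wells without and 2 with WBRT, cluster 4 held 8 and 50, and cluster 6 held 0 and 33. The part of these cells in the gene ratios was not tested. At 100 CPM or more, differences of at least 1.5-fold were found for 5 of 36 genes, against 34.1% of all genes at that level. Complex medians were 0.07 for complex I, -0.20 for complex II, 0.03 for complex III, 0.02 for complex IV and -0.11 for ATP synthase.

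Cox6a2 was farthest down, 10.5-fold lower with WBRT (4.31 to 33.4). Atp5sl followed at 2.18-fold lower (1.19 to 4.21), then Atp5j, a coupling subunit of the stalk of ATP synthase, at 1.94-fold (1.46 to 2.59) and Cox6c at 1.85-fold (1.45 to 2.38). The 5 genes called higher were Atp5s, Ndufaf1, Uqcrc2, Ndufaf4 and Uqcrfs1. Atp5s had 1 count without and 15 with WBRT (20.2-fold, 3.11 to 851), Ndufaf1 had 2 and 13 (8.76-fold, 1.98 to 79.9) and Ndufaf4 had 10 and 19 (2.56-fold, 1.13 to 6.16), so these rest on few counts. Among genes above 50 CPM stood the complex III genes Uqcrc2 at 2.34-fold (1.58 to 3.51) and Uqcrfs1 at 1.83-fold (1.17 to 2.90) and, below the limit on CPM + 5, the ATP synthase stator genes Atp5h at 1.504-fold (1.20 to 1.89) and Atp5f1 at 1.52-fold (1.04 to 2.24). The well with most astrocyte marker counts held 15.03 of the 73 Uqcrc2 counts. That well had 562 astrocyte marker counts, and without it the Uqcrc2 log2 ratio was 0.87, compared with 1.15. Within cluster 1 alone it was -0.28. The median over all members was 0.02 without that well, -0.28 with wells under the Malat1 limit left out, and -0.22 within cluster 1.

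**Figure D3:**
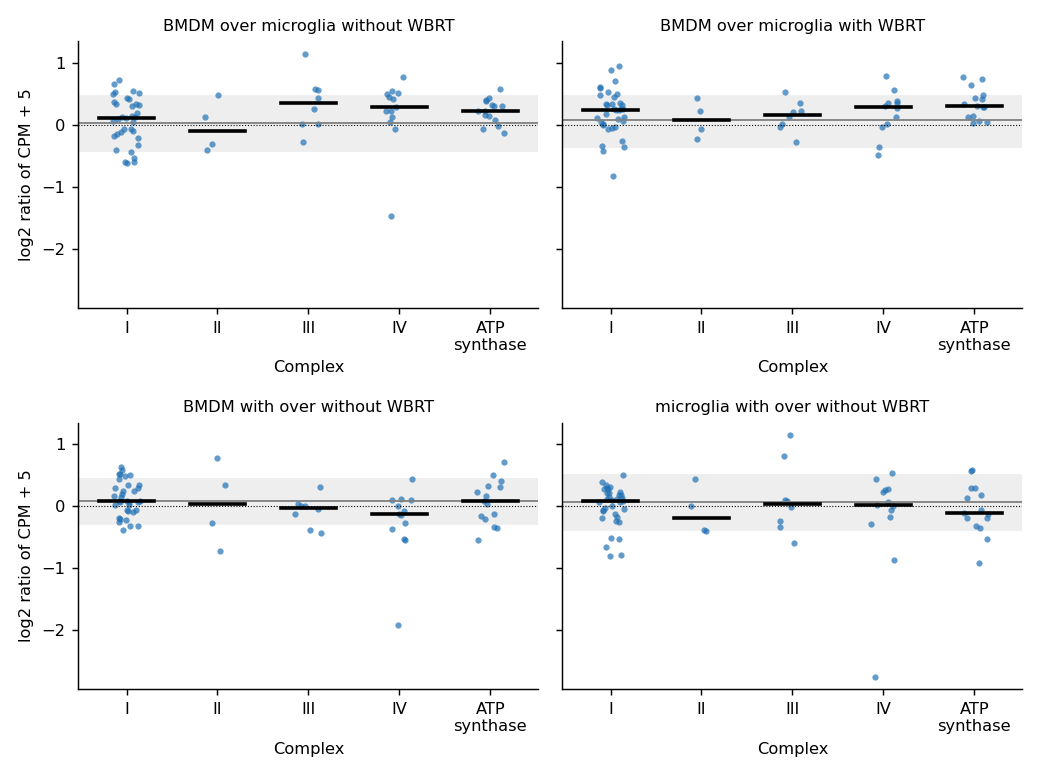
log2 ratios of CPM + 5 for each compared subunit gene (points) by complex in the 4 comparisons, with black bars for medians over genes, a grey line for the median of all nuclear genes, a grey band between their quartiles and a dotted line at 0. Most points lie inside or near the band, and the lowest point in 3 panels is Cox6a2, which is under 20 CPM and not shown in the remaining one.

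The mRNAs encoded on chrM did not keep step with the nuclear-encoded genes across plates. The chrM-encoded mRNAs of the same complexes made up 5.14% and 5.25% of endogenous counts in BMDM without and with WBRT and 8.60% and 6.77% in microglia. For each transcript of the 90 nuclear genes there were 4.97 and 5.11 chrM mRNAs in the BMDM plates and 9.44 and 7.60 in the microglia plates. With ribosomal RNA included, chrM rows took 9.04%, 7.48%, 10.2% and 9.19% of endogenous counts. The chrM ribosomal RNA alone took 3.89% and 2.22% in BMDM and 1.57% and 2.41% in microglia, so without WBRT it was higher in BMDM. While 55 of 78 nuclear genes were higher in BMDM without WBRT, 12 of the 13 chrM mRNAs were lower there, with a median of -0.68. With WBRT, 12 of 13 were again lower in BMDM, with a median of -0.48.

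The ratio of chrM to nuclear transcripts differed among complexes. For complex I it was 5.92 and 5.41 in BMDM and 11.7 and 9.45 in microglia, without then with WBRT. For complex III, whose chrM subunit is cytochrome b (mt-Cytb), it was 4.51 and 5.31 in BMDM and 12.5 and 9.21 in microglia. Complex IV had 7.34, 8.76, 12.1 and 11.0, and ATP synthase, with mt-Atp6 and mt-Atp8, had the lowest ratios, 2.91, 2.68, 5.78 and 3.68. Every one of these complexes had its higher ratios in the microglia plates.

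Between microglia plates, 11 of 13 chrM mRNAs stood lower in the plate with WBRT (median -0.36), and mtNd5 and mtNd4l were the exceptions. mtNd5 encodes a proton-pumping subunit of complex I and stood at 1959 CPM without and 3331 CPM with WBRT. mtNd4, another pumping subunit, stood at 13032 and 8955.5 CPM. The corresponding nuclear complex I genes summed to 2759 and 2743 CPM in the same plates. In BMDM, 7 of 13 chrM mRNAs were higher with WBRT, with a median of 0.06, and mtNd5 stood at 1495 and 1920 CPM.

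Across single wells, the nuclear share and the chrM share were nearly unrelated within every plate. Spearman's rho was -0.061 over 234 wells of BMDM without WBRT, -0.081 over 262 wells with WBRT, 0.074 over 157 wells of microglia without WBRT and 0.020 over 151 wells with WBRT. The wells of a plate share a library and differ in depth and cell type, so these are descriptions. The nuclear share was taken over nuclear-encoded counts only, so chrM counts do not enter it. The chrM share here includes ribosomal RNA. With the chrM mRNAs alone, rho was 0.15, 0.022, 0.091 and 0.036 in the same order. Wells held medians of 39.5, 89, 42 and 30 counts of the nuclear genes, so counting error is part of each share and weakens rho. In wells at or over the Malat1 limit, rho was 0.33 (87 wells) and 0.37 (45 wells) in the microglia plates.

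**Figure D4:**
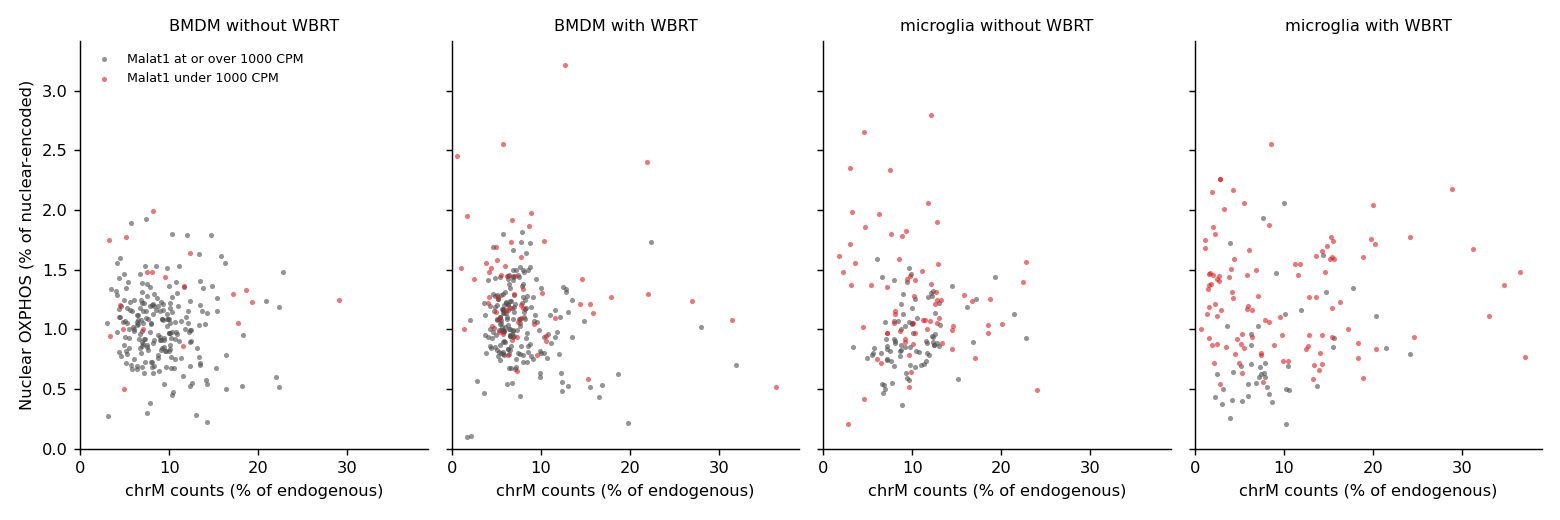
Nuclear oxidative phosphorylation share (% of nuclear-encoded counts) against the chrM share (% of endogenous counts) of each kept well, 1 panel for each plate, with wells under 1000 CPM of Malat1 in red. The clouds show no common slope, with rho between -0.081 and 0.074 over all wells of a plate.

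The nuclear share had larger coefficients, positive or negative, with some other properties of a well. Its rho with the share of cytosolic ribosomal protein genes was 0.454, 0.512, 0.508 and 0.385 in the 4 plates. Its rho with Malat1, a long RNA retained in the nucleus, was -0.392, -0.390, -0.427 and -0.441. With depth (nuclear-encoded counts) it was 0.297 and 0.026 in BMDM but -0.317 and -0.333 in microglia. Complex I and complex IV shares, which have no gene in common, had rho values of 0.190, 0.516, 0.291 and 0.395. The ribosomal and complex shares are taken over the same nuclear-encoded counts as the nuclear share. The chrM share and Malat1 are taken over all endogenous counts, so these coefficients do not rest on like measures. The part of the common denominator in them was not tested.

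Wells under 1000 CPM of Malat1 numbered 19, 59, 70 and 106 in the 4 plates. Pooled over such wells, the nuclear share was 1.39% (1.31 to 1.47) and 1.36% (1.32 to 1.41) in BMDM without and with WBRT and 1.19% (1.14 to 1.23) and 1.23% (1.19 to 1.27) in microglia. Over the other wells it was 1.12%, 1.08%, 0.942% and 0.749% (0.719 to 0.780). The intervals did not overlap in any plate. The wells under the limit were also shallower, with medians of 3003, 3769, 2814 and 2298 counts, compared with 4472, 10124, 5978 and 7147. What part Malat1, depth and RNA quality have in the difference was not tested.

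Wells were also grouped into clusters by the other genes, leaving out the 90 genes, chrM, ribosomal protein and cell cycle genes, so that the shares below did not enter the grouping. Cluster names rest on marker genes and may differ from the study's own. Shares differed within a cluster between plates too: microglia-like cluster 2 had 1.35% over 12 wells of BMDM without WBRT and 0.951% (0.928 to 0.976) over 91 wells of microglia without WBRT. The other highest pooled shares were found in microglia-like cluster 1 of microglia without WBRT (1.33%, 1.27 to 1.40, 55 wells) and in cluster 4. Cluster 4, unnamed and led by the iron exporter gene Slc40a1, the chemokine gene Ccl8 and the growth factor gene Igf1, had 1.33% (1.27 to 1.39) over 50 wells of microglia with WBRT and 1.30% (1.22 to 1.38) over 22 wells of BMDM with WBRT. Its share was thus alike in both sorts.

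The lowest shares were found in unnamed cluster 3 of BMDM with WBRT, at 0.626% (0.566 to 0.691, 18 wells), although the 80 wells of this cluster in BMDM without WBRT had 1.04% (1.01 to 1.07), and in microglia-like cluster 6, at 0.689% (0.658 to 0.721) over 33 wells of microglia with WBRT and 0.867% (0.831 to 0.905) over 21 wells of BMDM with WBRT. Cluster 6 was led by Adamts1, the cytokine gene Tnf and the heat shock gene Hspa1a. Among dendritic-like clusters of BMDM without WBRT, cluster 7, led by genes of cross-presenting dendritic cells such as Xcr1 and Clec9a, had 1.28% (1.23 to 1.33). Cluster 8, led by Ccr7, the receptor of migrating dendritic cells, had 0.937% (0.882 to 0.994).

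Plates of the same sort could be compared within clusters 1, 3 and 5. In dendritic-like cluster 5, the share was 1.01% (0.968 to 1.06) over 42 BMDM wells without WBRT and 1.25% (1.19 to 1.30) over 25 wells with WBRT. In microglia-like cluster 1, it was 1.33% over 55 wells without WBRT and 1.16% (1.10 to 1.21) over 61 wells with WBRT. In cluster 3, given above, BMDM with WBRT were lower. Beyond counting error, the plate with WBRT was thus higher in cluster 5 and lower in clusters 1 and 3, so the BMDM clusters went opposite ways. Median depths without and with WBRT were 4079 and 7669 counts in cluster 5, 4822 and 2587 in cluster 3, and 1916 and 2072 in cluster 1. Median Malat1 in cluster 1 was 491 CPM without and 0 CPM with WBRT.

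**Figure D5:**
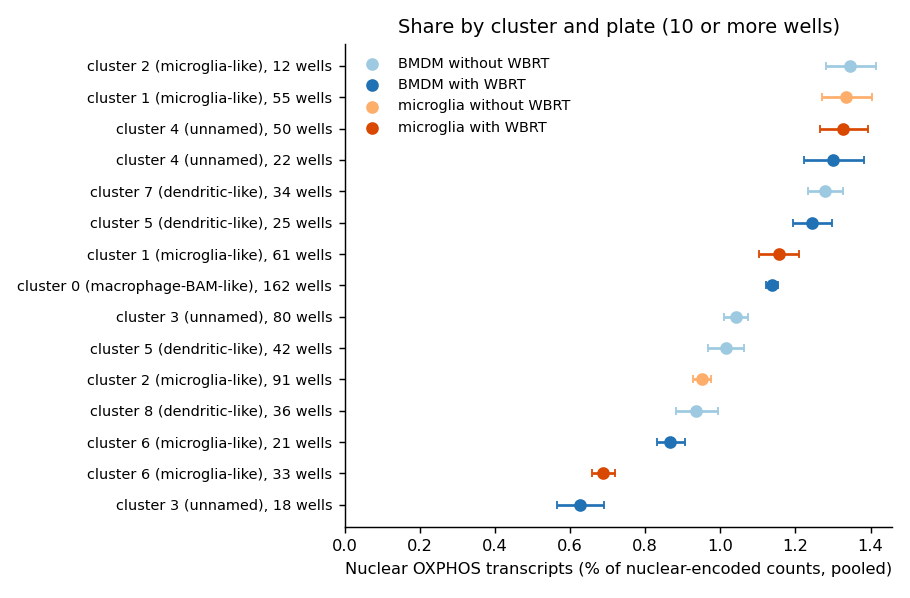
Pooled nuclear oxidative phosphorylation share (% of nuclear-encoded counts, points) with its 95% interval of counting error (bars) for each cluster and plate with at least 10 wells, sorted by share and colored by plate. Values run from 0.626% to 1.35%, a wider range than the 0.982% to 1.14% of whole plates.

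Medians of several other mitochondrial lists also lay near 0. Mitochondrial ribosomal protein genes, of which 55 to 61 of 76 were compared, had medians of 0.14, 0.19, 0.10 and 0.04 in the 4 comparisons, taken in the order above, and the citric acid cycle genes 0.14, 0.14, 0.14 and 0.02. The assembly factor genes outside the symbol rule had medians of -0.02, -0.04, -0.14 and -0.15. The 10 carriers and mobile parts of the chain had medians of 0.09, -0.04, 0.28 and 0.20, so those with over without WBRT lay above 0. Among them, cytochrome c (Cycs) stood at 291 and 183 CPM in BMDM and at 216 and 185 CPM in microglia, while cytochrome c1 (Cyc1) stood at 72.0 to 81.7 CPM in all plates. The uncoupling protein gene Ucp2 was the most abundant of them, at 1414, 1733, 1296 and 1822 CPM.

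Medians of cytosolic ribosomal protein genes lay farther from 0 between plates with and without WBRT, as did the median of glycolysis genes in microglia. In microglia, 12 of 14 glycolysis genes were higher with WBRT, 9 of them by at least 1.5-fold (background for higher 21.4%), with a median of 0.66. In BMDM 11 of 15 glycolysis genes were higher (55.9% of all genes were), 3 of them by at least 1.5-fold (background for higher 16.4%), with a median of 0.22. Pkm, a pyruvate kinase gene, stood at 1235 CPM in microglia without and 2029 CPM with WBRT. Cytosolic ribosomal protein genes had medians of -0.45 in BMDM and -0.49 in microglia with over without WBRT, and 24 of 76 and 29 of 77 were at least 1.5-fold lower (background for lower 13.8% and 17.8%). In BMDM without WBRT, dendritic-like clusters 5, 7 and 8 had ribosomal shares of 12.8%, 14.6% and 9.16%, and the whole plate had 11.2%. These clusters held 42, 34 and 36 wells of that plate and 25, 6 and 0 wells of BMDM with WBRT. In microglia with WBRT the median ERCC share was 30.6% and 70.2% of wells were under the Malat1 limit. Wells under that limit had the higher ribosomal share, at 8.51% against 4.87% in the other wells of this plate. In microglia without WBRT these shares were 10.3% and 9.18%. The part of these in either list was not tested. The nuclear oxidative phosphorylation genes had medians of 0.03 in both of these comparisons on pooled counts. Their medians moved under other processing, as given in the closing section. The glycolysis and ribosomal lists were not rerun under it, so the contrast is shown for pooled counts only.

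Regulators of these genes were at low levels. Ppargc1a, a coactivator of mitochondrial biogenesis, had 0 to 1.59 CPM, and its relative Ppargc1b 3.08 to 16.01 CPM. Nrf1 stood at 11.8 to 20.03 CPM, Gabpa at 18.5 to 25.2 CPM, Esrra at 23.1 to 34.6 CPM and Tfam, which packages mitochondrial DNA, at 14.9 to 30.8 CPM. Of the 17 regulators, 10 to 12 reached 20 CPM in a comparison, with medians of -0.26, 0.07, 0.28 and 0.17.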

How the data were processed

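Cells were sorted into 384-well plates and processed by a published single-cell protocol, per the labels' protocols; ERCC spike-in rows are in the tables, and GRCm38 is named as genome build in the submitters' processing notes. Aligner, counter and annotation: not given in the sources used here. In each deposited table the authors give an estimated count (expected count) of transcripts for every gene and well. They matched, within 0.00499, a correction for chance UMI collisions with 4096 identifiers, as read from the values. They were rounded only for count intervals and scaling factors.

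Wells with at least 1000 counts outside ERCC and chrM rows and an ERCC share under 50% were kept and summed per plate. CPM were taken over all endogenous counts, ratios on CPM + 5, for genes that reached 20 CPM in either library, and at least 1.5-fold differences were counted. Poisson, conditional (fold) and binomial intervals are at 95% and cover counting error only. With 1 library a group there was no test across samples. Code was tested on simulated data. Wells were clustered with scanpy 1.11.5, and TMM factors came from edgeR 4.0.16 (R 4.3.3). No doublet caller was run.

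Genes named with values are the 3 highest of each complex, the 4 highest and 4 lowest ratios of a comparison at 50 CPM or more, tissue isoforms, assembly factors, chrM mRNAs and up to 4 of each other list; further members and single genes of other lists were named after their values were seen. The members and lists were chosen with earlier results of these data known. Of 211 list symbols, 7 were matched by synonym and 16 were not found under their names. RefSeq (GRCm38.p6) gave start-site windows and positions, and GENCODE overlaps.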

Additional observations from a re-analysis of the deposited data

Results flagged for a closer look

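Wells left out for low counts or a high ERCC share also held transcripts of the nuclear oxidative phosphorylation genes, which no comparison above uses. Their pooled share of nuclear-encoded counts was 1.11% (0.986 to 1.25) in 150 wells of BMDM without WBRT and 1.15% (1.03 to 1.28) in 122 wells of BMDM with WBRT. It was 1.13% (1.04 to 1.23) in 227 wells of microglia without WBRT and 1.53% (1.45 to 1.62) in 233 wells of microglia with WBRT. The kept wells had 1.01% (0.992 to 1.04) and 0.982% (0.957 to 1.01) in these microglia plates, and in both the interval of the left-out wells lay above that of the kept wells. In both BMDM plates the intervals of left-out and kept wells overlapped.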

How the results depend on the processing

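No paired analysis was possible because each group is 1 plate and the labels carry no replicate numbers. The comparisons are called A (BMDM over microglia, no WBRT), B (BMDM over microglia, WBRT), C (WBRT in BMDM) and D (WBRT in microglia). The medians of A and B reversed to -0.022 and -0.032 with thinning and to -0.025 and -0.010 with wells weighted alike, while the WBRT medians moved to 0.18 and 0.17 with wells weighted alike. The median of B moved to 0.38 with a minimum of 3000 counts, 0.38 with an ERCC share under 25% and 0.54 without low-Malat1 wells, and that of D to -0.20, -0.17 and -0.28. That of C moved to 0.10 without the 5% deepest wells. In alternatives chosen after seeing the data, C was 0.39 in cluster 5 and -0.71 in cluster 3, and D -0.22 in cluster 1, while leaving out the astrocyte-marked well gave 0.25 and 0.02 for B and D. The medians of C and D lie near 0 and took either sign: with TMM factors they were 0.01 and -0.03. TMM factors, the denominator without chrM, the other filters and CPM + 1 left A and B above 0.

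Counts of genes at least 1.5-fold apart (9, 14, 5 and 13) became 25 (A), 20 (C) and 27 (D) with thinning, 16 (A) and 13 (C) with wells weighted alike, 14 (A) and 28 (B) with a minimum of 3000, 29 (B) with an ERCC share under 25%, and 39 (B) and 23 (D) without low-Malat1 wells. They became 2, 7, 1 and 5 at 100 CPM, and for C 8 without the deepest wells, 8 with no filter, 32 in cluster 5 and 50 in cluster 3, and for D 36 in cluster 1. Except at 100 CPM for A, C and D, the share of all genes at least 1.5-fold apart is not given for these alternatives. Thinned wells and single clusters also hold fewer counts and so carry more counting error. The counts of genes therefore do not show a change particular to the oxidative phosphorylation genes. Of medians by complex, ATP synthase without WBRT reversed to -0.11 (thinned) and -0.10 (alike), complex IV without WBRT to -0.034 (alike), complex I with WBRT to -0.0061 (thinned) and -0.038 (alike), and complex IV with WBRT to -0.088 (thinned). Sdhc reversed to -0.24 (thinned), Sdhd to 0.72 (cluster 5) and 0.020 (cluster 3), and Uqcrc2 to -0.28 (cluster 1). The Spearman coefficient of nuclear and chrM shares moved to 0.15 and 0.022 in the BMDM plates with the chrM share taken from its 13 mRNAs. In microglia without WBRT it moved to 0.26 (minimum 3000), 0.18 (ERCC), 0.33 (Malat1) and -0.054 (thinned), and with WBRT to 0.20, 0.30 and 0.37. In cluster 3, complex I in BMDM reversed to -0.32, Sdhc to -0.37 and Atp5f1 to -0.21. The causes were not tested. Depth limits single genes: a count of 0 allows up to 4.62 CPM in microglia with WBRT.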
